A study of Homo sapiens with 6 samples.

Results

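The 36 genes described here act in G2 and mitosis, the stages in which a cell prepares for division and then divides. They were chosen by symbol from a written list, all 36 were found among the 18544 genes of the count table, with 1 row each, and all 36 passed the filter on low counts. The cells were HMEC-1, a permanent line of endothelial cells from small vessels of human skin, kept in MCDB131 medium with 5.5 mM glucose, and their poly-A RNA was sequenced. The Set7KD group (n = 3 libraries) carried a lentiviral shRNA against Set7, and the NTC group (n = 3 libraries) carried a non-targeting shRNA by the same route. Set7 is the product of SETD7, a lysine methyltransferase of histone H3 and of other proteins. Each group rests on 1 shRNA construct in 1 cell line, so loss of SETD7 and any other action of its hairpin cannot be told apart.

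Entry into mitosis is driven by cyclin B bound to the kinase CDK1. Mitotic kinases, kinetochores and kinesin motors then build the spindle, the spindle checkpoint holds anaphase back until chromosomes are attached, and the anaphase-promoting complex ends mitosis by marking cyclin B and securin for destruction. Transcripts of these genes rise together late in the cell cycle under FOXM1 and MuvB complexes. In bulk RNA they therefore follow the share of cells in G2 and mitosis. A change in that share and a change in RNA per cell cannot be told apart.

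The libraries held 16385878 to 16953331 gene counts, and 1 count stood for 0.0585 to 0.0618 CPM, the unit used below, in which counts are scaled to the size of the library. SETD7 stood at 27.8, 43.8 and 26.7 CPM in Set7KD replicates 1, 2 and 3, against 180, 178 and 176 CPM in NTC. SETD7 was lower in every Set7KD library than in any NTC library (log2 fold change -2.44, standard error 0.21, edgeR adjusted p = 0.000927). Of 12 endothelial markers 10 were measured, so that the endothelial label was checked without the defining markers PECAM1 and CLDN5, which were not analysed here. Of these 10, 3 were called higher and 4 lower (70% in all, against 36.2% of all genes). The 10 summed to 589 to 624 CPM in Set7KD and 642 to 805 CPM in NTC. Among the 4 lower, CDH5 stood at 119 ± 11.4 CPM in Set7KD and 206 ± 32.1 CPM in NTC (mean ± SD, n = 3 each). Among the 3 higher, KDR stood at 27.8 ± 3.39 CPM in Set7KD and 17.3 ± 3.63 CPM in NTC. Of 8 fibroblast markers 6 were measured and 5 of these were called higher in Set7KD (83.3%, against 17.6% of all genes). Their summed level was 3163 to 4130 CPM in Set7KD and 1458 to 2005 CPM in NTC. COL1A1 was the largest part of this sum, with 2861 ± 395 CPM in Set7KD and 1555 ± 270 CPM in NTC. Of 8 smooth muscle and pericyte markers 7 were measured and 3 were called higher (42.9%, against 17.6% of all genes). The 7 summed to 539 to 762 CPM in Set7KD and 188 to 227 CPM in NTC. TAGLN was the largest part of this sum, with 551 ± 116 CPM in Set7KD and 96.3 ± 16.8 CPM in NTC. The 4 not called were ACTA2 and PDGFRB, with log2 fold changes of 0.20 and 0.11, and MYH11 and RGS5, with -0.15 and -0.07. Of 4 leukocyte markers CD14 alone was measured, at 3.37 to 4.3 CPM in Set7KD and 5.21 to 5.96 CPM in NTC, and the 4 keratinocyte markers were not analysed here. The part of these marker changes in the results below was not tested.

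Among the 36 genes, 9 were called higher and 2 lower in Set7KD by edgeR's quasi-likelihood test, at an adjusted p under 0.05 over 18482 genes. All of these differences were small. The 9 higher genes had log2 fold changes of 0.16 to 0.31, and the 2 lower genes, MAD2L1 and ECT2, of -0.49 and -0.25. Over all genes tested, 17.6% were called higher and 18.6% lower, 36.2% in all. The corresponding shares of the 36 genes were 25%, 5.56% and 30.6%, so that the total was near the background. This fit did not use the replicate number. With the replicate number as a block, 11 of the 36 genes were called higher and 4 lower. In that fit 20.7% of all genes were called higher and 22.1% lower, 42.8% in all. The median log2 fold change of the 36 genes was 0.04, against -0.01 over all genes. Their median absolute log2 fold change was 0.11, against 0.21 over all genes.

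**Figure D1:**
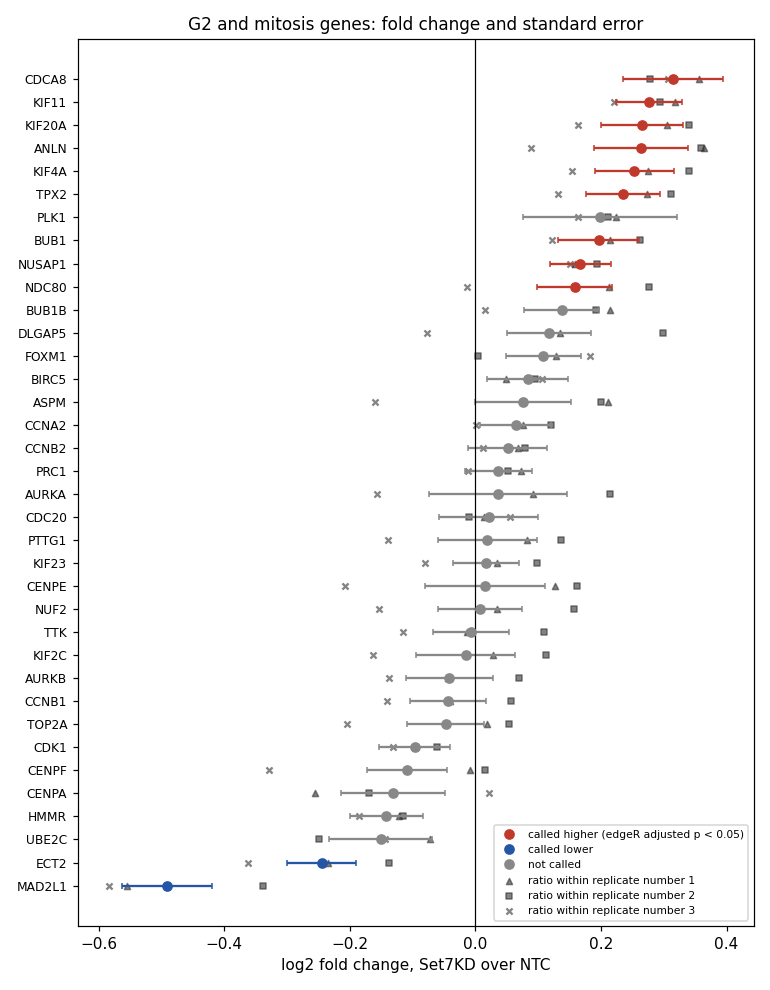
Log2 fold change of each of the 36 genes, Set7KD over NTC, with its standard error (edgeR) as a bar and the ratio within each replicate number as a small marker. The 9 genes called higher lie between 0.16 and 0.31, MAD2L1 and ECT2 lie at -0.49 and -0.25, and the cross of replicate number 3 lies left of the other 2 small markers for 30 of the 36 genes.

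The cyclins and their kinase did not pass the test. CCNB1, the B-type cyclin of mitotic entry, had 261, 270 and 276 CPM in Set7KD, against 268, 259 and 304 CPM in NTC. The groups overlapped, and the log2 fold change of CCNB1 was -0.04, its standard error 0.06 (edgeR adjusted p = 0.604). CDK1, its catalytic partner, had 181, 189 and 196 CPM in Set7KD, against 194, 198 and 215 CPM in NTC. The highest Set7KD library lay between the lowest and the middle NTC library, and the log2 fold change of CDK1 was -0.10 (standard error 0.06, edgeR adjusted p = 0.194). CCNB2, the other mitotic B-type cyclin measured here, averaged 129 ± 7.06 CPM in Set7KD and 125 ± 9.47 CPM in NTC. CCNA2, the cyclin of S and G2 phase, averaged 186 ± 5.04 CPM in Set7KD and 178 ± 11.9 CPM in NTC.

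PLK1, the polo-like kinase of centrosome maturation and spindle assembly, had 193, 161 and 204 CPM in Set7KD, against 166, 139 and 182 CPM in NTC. Within each replicate number the Set7KD library was higher, with log2 ratios of 0.22, 0.21 and 0.16, although the groups overlapped. The log2 fold change of PLK1, 0.20 with standard error 0.12, did not pass (edgeR adjusted p = 0.256), but it passed with the replicate number as a block (edgeR adjusted p = 0.00126). AURKA, the spindle pole kinase, averaged 87.0 ± 3.64 CPM in Set7KD and 84.9 ± 14.5 CPM in NTC. Its 3 log2 ratios within replicate numbers were 0.09, 0.21 and -0.16, and AURKA did not pass in either fit.

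The chromosomal passenger complex corrects faulty attachments of chromosomes to microtubules. CDCA8, its subunit borealin, had 111, 98 and 120 CPM in Set7KD, against 86.5, 80.9 and 96.7 CPM in NTC. Every Set7KD value lay above every NTC value, and the log2 fold change of CDCA8 was 0.31, its standard error 0.08 (edgeR adjusted p = 0.00789), the largest rise among the 36 genes. The other subunits measured did not pass. AURKB, its kinase, had 88.0, 83.7 and 89.0 CPM in Set7KD, against 90.6, 79.7 and 97.9 CPM in NTC. BIRC5, the subunit survivin, averaged 148 ± 10.7 CPM in Set7KD and 140 ± 9.55 CPM in NTC (edgeR adjusted p = 0.341).

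Genes of the spindle checkpoint moved in both directions. MAD2L1, which encodes the checkpoint protein MAD2 that holds the activator CDC20 inactive, had 34.6, 39.9 and 37.1 CPM in Set7KD, against 50.8, 50.4 and 55.6 CPM in NTC. All 3 Set7KD libraries lay below all NTC libraries. The log2 fold change of MAD2L1 was -0.49, its standard error 0.07 (edgeR adjusted p = 8.4e-05), the largest change in either direction among the 36 genes. BUB1, the checkpoint kinase at the kinetochore, had 184, 181 and 195 CPM in Set7KD, against 159, 151 and 179 CPM in NTC. The groups of BUB1 did not overlap, but the highest NTC library lay just under the lowest Set7KD library (log2 fold change 0.20, standard error 0.06, edgeR adjusted p = 0.0253). BUB1B, the pseudokinase BUBR1, averaged 203 ± 3.48 CPM in Set7KD and 184 ± 15.2 CPM in NTC and did not pass (edgeR adjusted p = 0.0834), but passed with the replicate block (edgeR adjusted p = 0.0249). TTK, the kinase MPS1 at the head of the checkpoint, averaged 70.5 ± 2.66 CPM in Set7KD and 70.8 ± 4.02 CPM in NTC. Of these 4 checkpoint genes, MAD2L1 alone was called lower and BUB1 alone higher.

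Partners of the anaphase-promoting complex did not pass the unblocked test. CDC20, its mitotic activator, averaged 107 ± 11 CPM in Set7KD and 105 ± 8.58 CPM in NTC. PTTG1, the securin that inhibits separase, averaged 81.0 ± 3.42 CPM in Set7KD and 80.0 ± 10.1 CPM in NTC. UBE2C, the ubiquitin-conjugating enzyme that works with the complex, had 51.1, 42.3 and 52.5 CPM in Set7KD, against 53.7, 50.3 and 58.0 CPM in NTC. Its groups overlapped, yet UBE2C was lower in Set7KD within each replicate number, with log2 ratios of -0.07, -0.25 and -0.14. UBE2C had an edgeR adjusted p of 0.17 without the replicate block and of 0.0396 with it.

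Of the 5 centromere and kinetochore genes only NDC80 was called. NDC80, the microtubule-binding subunit that gives its complex its name, had 126, 133 and 119 CPM in Set7KD, against 109, 110 and 120 CPM in NTC. The groups overlapped, and its edgeR adjusted p of 0.0494 was the closest to the threshold among the genes called (log2 fold change 0.16, standard error 0.06). NUF2, its partner in the same complex, averaged 82.5 ± 1.19 CPM in Set7KD and 82.0 ± 8.1 CPM in NTC. CENPE, a kinesin of the kinetochore, averaged 208 ± 2.24 CPM in Set7KD and 206 ± 32.5 CPM in NTC. CENPF, a large kinetochore protein, averaged 722 ± 40.2 CPM in Set7KD and 779 ± 61.3 CPM in NTC, and CENPA, the histone H3 variant of centromeres, 26.3 ± 2.57 CPM in Set7KD and 28.8 ± 0.97 CPM in NTC. NUF2, CENPE, CENPF and CENPA had edgeR adjusted p of 0.202 to 0.941.

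Kinesin motors supplied 3 of the 9 higher genes. KIF11, the motor Eg5 that pushes spindle poles apart, had 294, 302 and 302 CPM in Set7KD, against 236, 247 and 259 CPM in NTC. The Set7KD libraries lay close to each other and above all NTC libraries, and KIF11 had a log2 fold change of 0.28 (standard error 0.05, edgeR adjusted p = 0.000764). KIF20A, the kinesin MKLP2 of the central spindle, had 239, 227 and 244 CPM in Set7KD, against 193, 180 and 218 CPM in NTC (log2 fold change 0.27, standard error 0.07, edgeR adjusted p = 0.00507). KIF4A, a kinesin that binds chromosomes and the central spindle, had 146, 138 and 144 CPM in Set7KD, against 121, 109 and 129 CPM in NTC (log2 fold change 0.25, standard error 0.06, edgeR adjusted p = 0.00512). For both genes the groups did not overlap. The other 2 kinesins did not pass. KIF23, the kinesin of centralspindlin, averaged 285 ± 3.85 CPM in Set7KD and 282 ± 14 CPM in NTC. KIF2C, a microtubule depolymerase of the centromere, averaged 161 ± 5.33 CPM in Set7KD and 163 ± 21.2 CPM in NTC.

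Among 6 genes of spindle assembly and microtubule bundling, TPX2 and NUSAP1 were called higher. TPX2, which activates AURKA and nucleates microtubules, had 405, 390 and 402 CPM in Set7KD, against 336, 315 and 367 CPM in NTC (log2 fold change 0.24, standard error 0.06, edgeR adjusted p = 0.00553). NUSAP1, a microtubule-binding protein near chromosomes, had 323, 330 and 331 CPM in Set7KD, against 289, 289 and 299 CPM in NTC (log2 fold change 0.17, standard error 0.05, edgeR adjusted p = 0.0143). The groups overlapped for neither gene. HMMR, a spindle-associated protein, lay the other way, with 98.3, 106 and 105 CPM in Set7KD, against 107, 114 and 119 CPM in NTC. Its groups did not overlap, and HMMR had an edgeR adjusted p of 0.0662 without the replicate block and of 0.0194 with it (log2 fold change -0.14). PRC1, which bundles antiparallel microtubules, averaged 483 ± 13.1 CPM in Set7KD and 471 ± 21.8 CPM in NTC. DLGAP5, a stabiliser of kinetochore fibres, averaged 181 ± 11 CPM in Set7KD and 167 ± 15.2 CPM in NTC, and ASPM, a spindle pole protein, 441 ± 9.74 CPM in Set7KD and 418 ± 54.7 CPM in NTC. PRC1, DLGAP5 and ASPM did not pass, with edgeR adjusted p of 0.191 to 0.629.

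The pair of cytokinesis genes were called in opposite directions. ANLN, the anillin scaffold of the cleavage furrow, had 683, 651 and 680 CPM in Set7KD, against 530, 507 and 640 CPM in NTC. The groups did not overlap, but NTC replicate 3 lay close to the Set7KD libraries (log2 fold change 0.26, standard error 0.08, edgeR adjusted p = 0.0147). ECT2, the exchange factor that activates RhoA at the furrow, had 191, 205 and 190 CPM in Set7KD, against 224, 225 and 244 CPM in NTC. All Set7KD libraries of ECT2 lay below all NTC libraries (log2 fold change -0.25, standard error 0.06, edgeR adjusted p = 0.00275). TOP2A, the topoisomerase that untangles sister chromatids, had 950, 972 and 931 CPM in Set7KD, against 939, 937 and 1074 CPM in NTC and did not pass (edgeR adjusted p = 0.578). FOXM1, a transcription factor of the G2 and mitosis programme, had 236, 209 and 245 CPM in Set7KD, against 216, 208 and 216 CPM in NTC. Its groups overlapped through Set7KD replicate 2 (log2 fold change 0.11, standard error 0.06, edgeR adjusted p = 0.174).

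**Figure D2:**
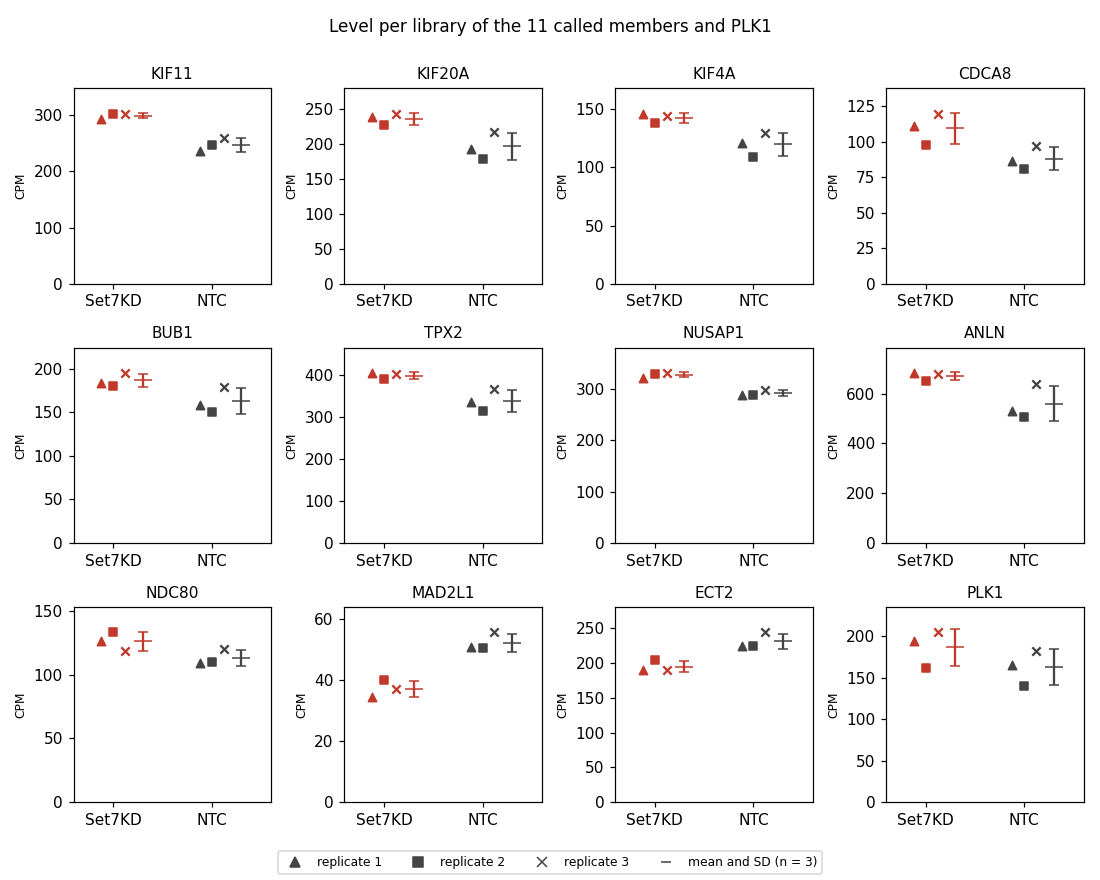
Level in CPM of the 11 called genes and PLK1 in each library, Set7KD left and NTC right, with the replicate number as the marker shape and the mean and SD (n = 3) as a bar beside the points; each axis starts at 0. MAD2L1 and ECT2 are lower in all 3 Set7KD libraries, and NTC replicate 3 is the highest NTC library in every panel.

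For 11 of the 36 genes, 8 higher and 3 lower in Set7KD, no CPM value of one group fell within the range of the other. Over all genes tested this held for 23.3% in the higher and 24.1% in the lower direction, 47.4% in all. An exact two-sided permutation test of 3 libraries against 3 cannot give a p below 0.1. It gave 0.1 for MAD2L1, KIF11, CDCA8 and ANLN, 0.2 for CDK1, 0.3 for PLK1 and for FOXM1, and 0.9 for CCNB1.

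The libraries of 1 group differed among themselves in these genes. NTC replicate 3 had the highest NTC level in 34 of the 36 genes, and NTC replicate 2 the lowest in 31. Over all genes tested the corresponding shares were 33.2% and 33.4%. In Set7KD, replicate 3 had the highest level in 18 of the 36 genes and replicate 2 the lowest in 20, against 33.7% and 36.9% of all genes. The 36 genes summed to 8435, 8301 and 8449 CPM in Set7KD replicates 1, 2 and 3, and to 7829, 7568 and 8780 CPM in NTC replicates 1, 2 and 3. The Set7KD sums lay close together and between the NTC sums, and the difference in means was smaller than the NTC spread (8395 ± 81.8 CPM in Set7KD and 8059 ± 638 CPM in NTC, exact permutation p = 0.4, two-sided). The coefficient of variation of the 36 genes had a median of 3.79% in Set7KD and 7.94% in NTC. Among 35 other genes of G2 and mitosis, NTC replicate 3 was the highest NTC library in 31 genes. Among 36 genes of DNA replication and the G1/S transition it was the lowest in 22, against 37.3% of all genes.

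**Figure D3:**
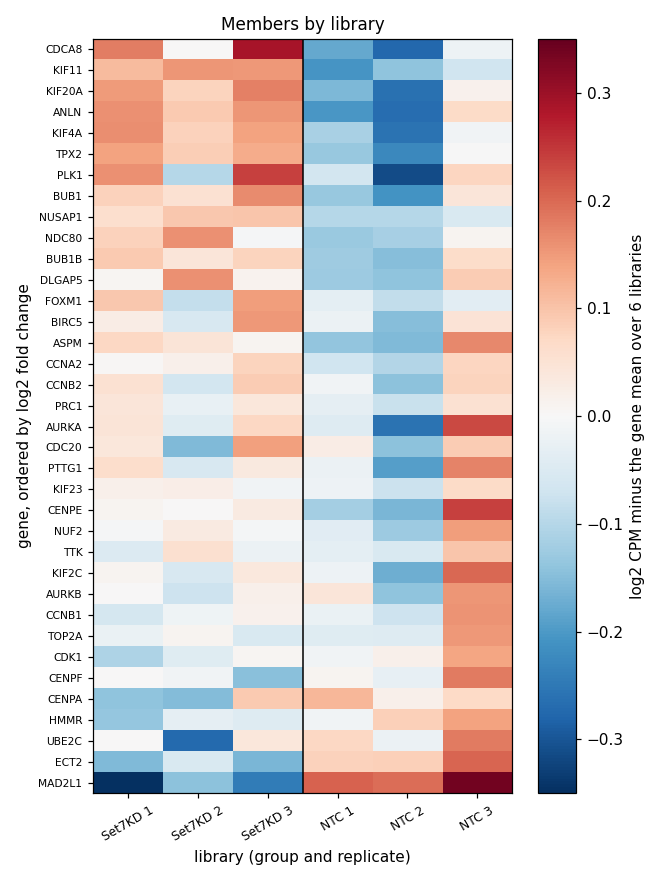
Log2 CPM of the 36 genes in each library, relative to the gene's mean over the 6 libraries, with genes ordered by log2 fold change and the Set7KD libraries left of the line. The NTC replicate 3 column is the highest of the NTC columns in 34 of 36 genes, and MAD2L1 has the strongest contrast between the groups.

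Within replicate numbers the 36 genes lay differently in the third pair. Set7KD was higher than NTC in 26 of the genes in replicate number 1, in 29 in replicate number 2 and in 16 in replicate number 3. Over all genes these shares were 49.1, 48.4 and 49.8%. The median log2 ratio of the 36 genes was 0.07, 0.12 and -0.05 in the 3 replicate numbers. A total of 14 genes were higher in Set7KD in all 3 replicate numbers and 5 were lower in all 3, against 31.3% and 33% over all genes, 64.3% in all. KIF11 had log2 ratios of 0.32, 0.29 and 0.22, and CDCA8 of 0.36, 0.28 and 0.31, both nearly even over the replicate numbers. MAD2L1 had log2 ratios of -0.56, -0.34 and -0.58. ANLN had log2 ratios of 0.36, 0.36 and 0.09, the smallest in the pair with NTC replicate 3.

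Blocking on the replicate number gave 11 higher and 4 lower among the 36 genes, adding PLK1 and BUB1B to the higher and UBE2C and HMMR to the lower genes, where 20.7% and 22.1% of all genes were called higher and lower, 42.8% in all. Without NTC replicate 3 the calls were 13 higher and 2 lower, the added genes being BUB1B, CENPE, DLGAP5 and ASPM, where 16.2% and 17.8% of all genes were called higher and lower, 34% in all. Without both replicate 1 libraries 0 members were called higher by edgeR, 5 were higher at an unadjusted p under 0.05, and MAD2L1 was the only member called in either direction. In that fit the calls over all genes were fewer too, 7.66% higher and 8.46% lower, 16.1% in all. CDCA8 then had an edgeR adjusted p of 0.125 and KIF11 of 0.0504. Against a minimum fold of 1.2, which 4.89% of all genes passed in the higher and 7.11% in the lower direction, 12% in all, MAD2L1 was the only member called (edgeR adjusted p = 0.00889). The count of higher genes was 5 without NTC replicate 1, with BUB1, NDC80, NUSAP1 and ANLN lost, where 13.1% and 13.8% of all genes were called higher and lower, 26.9% in all. ANLN also lost its call without NTC replicate 2 or without any one of the Set7KD libraries, with an edgeR adjusted p of 0.0523 to 0.0797 over the 5 libraries. BUB1 also lost its call without NTC replicate 2 or Set7KD replicate 1 or 3, and NDC80 without NTC replicate 2 or Set7KD replicate 1 or 2. The call of ECT2 was lost without both replicate 3 libraries (edgeR adjusted p = 0.0516), where BUB1B, DLGAP5 and ASPM were added to the higher genes. FOXM1 was called higher without Set7KD replicate 2. Without both replicate 2 libraries PLK1 and FOXM1 were called higher, while BUB1, NDC80 and ANLN lost their calls.

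**Figure D4:**
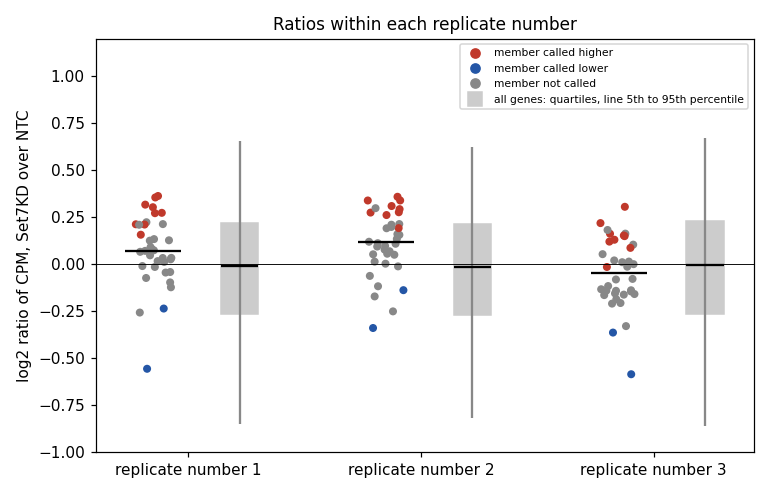
Log2 ratio of CPM, Set7KD over NTC, of each of the 36 genes within each replicate number (points, with a line at their median), beside the quartiles and the 5th to 95th percentile of all 18482 genes. The medians of the 36 genes are 0.07, 0.12 and -0.05, and the points of the 36 genes lie within the 5th to 95th percentile of all genes in each replicate number.

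Many genes of G2 and mitosis are known to share control elements near their start, and promoters are shown for 4 genes that rose and the 2 that fell, picked as examples after their values were seen. RefSeq promoters, which run from 250 bases before to 50 bases after the start on GRCh38.p14, were matched by symbol for 30 of the 36 genes; AURKA, BIRC5, FOXM1, TPX2, TTK and UBE2C were not matched. The cell cycle genes homology region, through which MuvB complexes bind, was searched as TTTGAA or TTCGAA on both strands. The CCAAT box, the site of NF-Y, was searched as CCAAT on both strands. The homology region letters were found for 23 of the 30 genes (76.7%), against 19.5% of 27305 gene symbols with a promoter in the same table. CCAAT was found for 24 of the 30 (80%), against 39.7%, and both motifs for 19 (63.3%), against 7.85%. The homology region letters were present in 7 of 8 genes called higher, in 2 of 2 called lower and in 14 of 20 that were not called. CCAAT was present in 6 of 8, 2 of 2 and 16 of 20 of these genes, and both motifs in 5 of 8, 2 of 2 and 12 of 20. Below, the 150 bases before and 50 after the start are printed 5′ to 3′ on the gene's strand, with both motifs in capitals. KIF11 lies at chr10:92592980-92593179 (+), CDCA8 at chr1:37692366-37692565 (+), ANLN at chr7:36389712-36389911 (+), KIF4A at chrX:70289954-70290153 (+), MAD2L1 at chr4:120066799-120066998 (-) and ECT2, by the more upstream of its RefSeq starts, at chr3:172750576-172750775 (+).
KIF11: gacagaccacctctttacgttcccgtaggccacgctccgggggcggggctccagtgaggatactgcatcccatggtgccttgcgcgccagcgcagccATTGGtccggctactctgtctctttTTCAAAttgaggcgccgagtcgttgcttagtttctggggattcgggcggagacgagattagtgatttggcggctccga
CDCA8: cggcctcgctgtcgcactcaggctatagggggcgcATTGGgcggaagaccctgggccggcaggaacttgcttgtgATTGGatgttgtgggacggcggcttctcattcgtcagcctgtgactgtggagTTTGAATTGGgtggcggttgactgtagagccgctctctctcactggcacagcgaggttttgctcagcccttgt
ANLN: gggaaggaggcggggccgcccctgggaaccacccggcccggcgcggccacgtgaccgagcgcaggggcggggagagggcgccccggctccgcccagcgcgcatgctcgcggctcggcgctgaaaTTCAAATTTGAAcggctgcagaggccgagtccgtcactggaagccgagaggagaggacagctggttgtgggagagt
KIF4A: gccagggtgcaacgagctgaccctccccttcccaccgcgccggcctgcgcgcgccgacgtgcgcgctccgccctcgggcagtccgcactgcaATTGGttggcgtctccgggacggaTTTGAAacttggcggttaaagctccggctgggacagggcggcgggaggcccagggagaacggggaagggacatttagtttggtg
MAD2L1: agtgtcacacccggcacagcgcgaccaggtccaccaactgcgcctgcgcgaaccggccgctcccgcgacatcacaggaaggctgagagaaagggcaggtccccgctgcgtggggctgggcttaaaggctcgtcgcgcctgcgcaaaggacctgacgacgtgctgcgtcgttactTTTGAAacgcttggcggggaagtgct
ECT2: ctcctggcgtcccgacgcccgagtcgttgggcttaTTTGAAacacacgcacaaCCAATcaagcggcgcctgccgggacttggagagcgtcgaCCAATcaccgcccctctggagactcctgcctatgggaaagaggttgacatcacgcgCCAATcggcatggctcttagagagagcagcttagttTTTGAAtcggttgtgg
Counted from the start, with no base 0, the homology region letters began at -28 in KIF11, -23 in CDCA8, -34 in KIF4A and 25 in MAD2L1. In ANLN 2 copies lay side by side from -26, and in ECT2 the copies began at -115 and 35. In CDCA8 the last base of TTTGAA is also the first base of a CCAAT box on the other strand. KIF11 and KIF4A carried CCAAT on the other strand, at -53 and -58, and no CCAAT letters lay in the printed windows of ANLN and MAD2L1. The promoter searched for MAD2L1 did hold CCAAT, outside the printed bases. KIF11 and ECT2, called in opposite directions, thus both held the 2 motifs in the printed windows.

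Levels were set against each other per kilobase of annotated exon, with gene models of GENCODE 29, which may differ from those the authors counted. TOP2A had the highest level, 148 ± 3.17 CPM per kilobase in Set7KD and 153 ± 12.2 in NTC (SD, n = 3 each). CCNB1 followed in NTC with 108 ± 9.2 CPM per kilobase, then NUSAP1 with 102 ± 1.92, TPX2 with 94.1 ± 7.38 and ANLN with 93.0 ± 11.8. TPX2 and ANLN lay within their SDs of each other. MAD2L1 was the lowest, with 6.47 ± 0.46 CPM per kilobase in Set7KD and 9.09 ± 0.51 in NTC, below CENPA with 13.3 ± 1.3 in Set7KD and 14.5 ± 0.49 in NTC. The length joins the exons of all annotated transcripts, 5748 bases for MAD2L1 and 1983 for CENPA, and this order depends on it. In CPM, MAD2L1 (37.2 in Set7KD and 52.3 in NTC) lay above CENPA (26.3 in Set7KD and 28.8 in NTC). Strand use in the counting was not given in the sources used here. Exons of 13 of the 36 genes overlap exons of another gene of the table, over at most 15.9% of their length, in FOXM1 with ITFG2. KIF20A overlaps BRD8 and CDC23, by at most 3.34%. Reads of KIF4A, CDC20, UBE2C and PTTG1 could also be split with the near-identical copies KIF4B, CDC20P1, UBE2CP1, PTTG2 and PTTG3P that are listed in the table.

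Other genes of the same processes were read from lists, by counts alone. Among 35 other genes of G2 and mitosis 8 were called higher and 4 lower (34.3%, against 36.2% of all genes). SHCBP1 averaged 193 ± 12 CPM in Set7KD and 143 ± 13.4 CPM in NTC, and DEPDC1B 44.7 ± 2.56 CPM in Set7KD and 33.9 ± 1.98 CPM in NTC, both rising. MELK, a kinase of dividing cells, fell to 94.2 ± 2.77 CPM in Set7KD, against 121 ± 3.7 CPM in NTC. Of 31 other kinetochore and checkpoint genes 12 were called higher and 5 lower (54.8%). SKA1 and SKA3, subunits of the complex that couples kinetochores to microtubule ends, rose with log2 fold changes of 0.55 and 0.45, and MIS12, a kinetochore scaffold, fell with -0.59 (edgeR adjusted p under 0.05 for each).

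Of 17 genes of the CDK1 switch and the G2 checkpoint 2 were called higher and 4 lower (35.3%, against 36.2% of all genes). CDC25B, a phosphatase that activates CDK1, fell to 178 ± 2.38 CPM in Set7KD, against 242 ± 3.23 CPM in NTC, while CDC25A, a related phosphatase, rose to 51.8 ± 2.45 CPM in Set7KD, against 39.0 ± 1.98 CPM in NTC. SFN, the 14-3-3 sigma protein of the G2 arrest, fell to 1.16 ± 0.29 CPM in Set7KD, against 3.94 ± 0.69 CPM in NTC. Of 16 genes of the anaphase-promoting complex 2 were called higher and 3 lower (31.2%). ANAPC13, a subunit, fell with a log2 fold change of -0.46 and UBE2S, a ubiquitin-conjugating enzyme of the complex, with -0.53, while ANAPC7, another subunit, rose with 0.25. Of 20 condensin and cohesin genes 2 were called higher and 2 lower (20%). PDS5B, a cohesin regulator, rose with a log2 fold change of 0.29, NCAPG, a condensin subunit, rose with 0.21, and SGOL2, a protector of centromeric cohesin, fell with -0.34.

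The DREAM and MuvB complexes repress or activate cell cycle genes. Of 18 regulators of these complexes 8 were called higher and 4 lower (66.7%, against 36.2% of all genes). RBL2, the pocket protein p130 of the repressive DREAM complex, fell to 74.5 ± 3.66 CPM in Set7KD, against 124 ± 0.86 CPM in NTC. RBBP4, a histone-binding subunit shared with other chromatin complexes, fell to 64.2 ± 5.33 CPM in Set7KD, against 104 ± 5.98 CPM in NTC. E2F3, an activating E2F factor, rose to 58.4 ± 3.6 CPM in Set7KD, against 42.2 ± 1.72 CPM in NTC. Of 36 genes of DNA replication and the G1/S transition 11 were called higher and 7 lower (50%, against 36.2% of all genes). CCNE1, the cyclin of S phase entry, had a log2 fold change of 1.09, CHAF1A of -0.45 and CDT1, a licensing factor of replication origins, of -0.47.

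**Figure D5:**
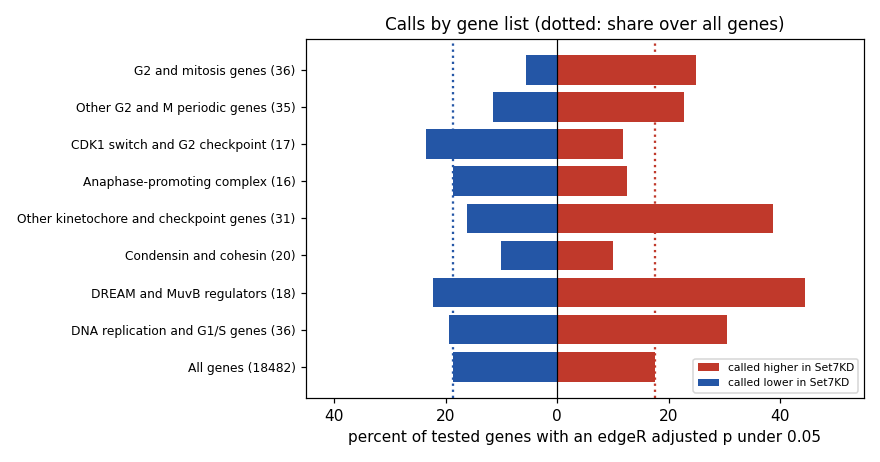
Percent of the tested genes of each list that were called higher (right of 0) or lower (left of 0) in Set7KD by edgeR at an adjusted p under 0.05, with the number tested in brackets and the shares over all genes, 17.6% and 18.6%, as dotted lines. The 36 genes of G2 and mitosis have 25% called higher and 5.56% called lower.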

How the data were processed

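Per the labels' protocols, the RNA came from a Qiagen RNeasy preparation with Dynabead poly-A enrichment, and the sequencing libraries from an Illumina mRNA-seq kit. The authors deposited raw counts for each gene, with no normalization; BWA, bedtools and the build hg19 stand in the submitters' processing notes, with no tool version. Strand use and the treatment of reads with several matches were not given in the sources used here. The lowest sum of a listed gene over the libraries was 60 counts. The last row of the table names no gene; it made up 55.6 to 56.1% of a library's counts and entered neither the library sizes nor any test.

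The test was that of edgeR 4.0.16 in R 4.3.3 (filterByExpr, TMM, robust glmQLFit, glmQLFTest, group as the single factor), with Benjamini-Hochberg adjustment over 18482 genes and a call at an adjusted p under 0.05. CPM use TMM-scaled library sizes. The standard error is the absolute log2 fold change divided by the root of the F statistic. The scripts were tested on simulated data. DESeq2 1.42.0 and limma-voom (limma 3.58.1) were alternatives, as were 2 other normalizations, 2 other filters, a replicate block, a minimum fold of 1.2, an adjusted p under 0.01, and libraries left out.

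Groups and replicate numbers come from the sample titles. The series text speaks of biological triplicate without saying whether transductions were separate, so p-values measure only the spread between these libraries, which may be technical. No 2 libraries of a group were alike to within counting noise (chi-square per degree of freedom from 2.98 to 9.85). Deviations from the group means, over the 11151 genes that averaged 10 CPM or more, had a correlation of 0.302, 0.419 and 0.34 within a replicate number and of -0.358 to -0.038 across numbers. Since each of the 3 exceeded 0.1, same-numbered libraries were treated as pairs in the ratios within replicate numbers and in the replicate block. Deviations cancel within a group for each gene, so the correlations across numbers are tied to those within and give no separate support. The main calls come from the fit without the block, which does not use this pairing. The pairing rests on the data alone, since no label says what a number marks.

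The members and lists were chosen with earlier results of these data known. All 36 members may be named, as well as SETD7 and up to 3 genes with the smallest p of each list; the marker genes stand beside them as a check of the cells. Exon lengths and overlaps were taken from GENCODE 29, by Ensembl identifier, and promoters from RefSeq on GRCh38.p14. Both are on a later build than the counts.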

Additional observations from a re-analysis of the deposited data

How the results depend on the processing

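The count of higher members among the 36 was 9, and 8 to 11 under the other normalizations, filters, tools and the replicate block. It was 0 against a fold of 1.2 (0 at an unadjusted p under 0.05 as well) and 5 at an adjusted p under 0.01. It ran from 0 to 13 with libraries left out. The count of lower members was 2. It was 4 with the replicate block, 1 against a fold of 1.2, and 1 to 2 with libraries left out. DESeq2 and limma-voom each called 8 higher and 2 lower, NDC80 being the call that was lost. Over all genes DESeq2 called 2697 higher and 2687 lower, and limma-voom 3194 and 3419. Over all genes, 3250 higher and 3440 lower calls became 903 and 1314 against a fold of 1.2. They became 2103 and 2197 at an adjusted p under 0.01. Under the other normalizations, filters, tools and the replicate block they ran from 2697 to 3826 and from 2687 to 4090. With libraries left out they ran from 1414 to 3214 and from 1562 to 3303. The replicate block changed no member's call other than those of PLK1, BUB1B, UBE2C and HMMR. MAD2L1 and SETD7 kept their direction and their call in all 18 alternatives. The median log2 fold change of the 36 genes lay between -0.01 and 0.12 with libraries left out. The cause of these shifts was not tested.

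With libraries left out, 13 members that were not called took the other sign in at least 1 setting. The log2 fold change ran from -0.073 to 0.17 for AURKA, from -0.12 to 0.028 for AURKB, from -0.093 to 0.027 for CCNB1, from -0.0048 to 0.10 for CCNB2 and from -0.043 to 0.10 for CDC20. It ran from -0.058 to 0.16 for CENPE, from -0.17 to 0.017 for CENPF, from -0.023 to 0.081 for KIF23, from -0.10 to 0.089 for KIF2C and from -0.063 to 0.11 for NUF2. It ran from -0.066 to 0.12 for PTTG1, from -0.10 to 0.050 for TOP2A and from -0.066 to 0.063 for TTK.

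Among the other lists, a fold of 1.2 left 1 higher and 0 lower of the other G2 and mitosis genes, 4 and 1 of the kinetochore genes, 1 and 2 of the CDK1 switch genes, 0 and 1 of the anaphase-promoting complex, 0 and 0 of the condensin and cohesin genes, 1 and 2 of the DREAM and MuvB regulators and 2 and 2 of the replication genes. At an adjusted p under 0.01 the CDK1 switch genes had 1 higher and 2 lower calls, the anaphase-promoting complex 1 higher, the kinetochore genes 3 lower and the condensin and cohesin genes 1 lower. The calls over all genes fell in these settings too. From 3250 higher and 3440 lower they went to 903 and 1314 against the fold and to 2103 and 2197 at the stricter p. DESeq2 gave 1 higher call in the anaphase-promoting complex, 3 lower in the kinetochore genes and 1 lower in the condensin and cohesin genes, and relative log expression scaling also gave 1 lower in the last list. Over all genes DESeq2 gave 2697 higher and 2687 lower calls, and that scaling 3352 and 3361. With libraries left out, higher calls ran from 2 to 11 and lower from 2 to 6 in the other G2 and mitosis genes, from 7 to 12 and 3 to 4 in the kinetochore genes, and from 1 to 2 and 2 to 6 in the CDK1 switch genes. They ran from 0 to 2 and 1 to 3 in the anaphase-promoting complex, from 1 to 2 and 1 to 2 in the condensin and cohesin genes, from 3 to 8 and 3 to 4 in the DREAM and MuvB regulators, and from 2 to 12 and 2 to 8 in the replication genes. The lowest count of higher calls in each of these lists came without both replicate 1 libraries. In the CDK1 switch genes and the condensin and cohesin genes the same count was also reached with other libraries left out. Over all genes, the setting without both replicate 1 libraries also gave the lowest counts with libraries left out, 1414 higher and 1562 lower. The replicate block gave 12 higher and 6 lower in the other G2 and mitosis genes, and 3826 and 4090 over all genes.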
